A study of Mus musculus with 12 samples.

Results

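The genes described are 36 that encode noncollagenous parts of the extracellular matrix and the enzymes and inhibitors that remodel it, chosen by name from the 25911 gene rows of the GC2 libraries and the 36987 gene rows of the spermatocyte libraries. They comprise 5 proteoglycans, 7 fibre glycoproteins, 7 basement membrane proteins, 8 matricellular proteins, 4 matrix metalloproteinases and 5 genes of the inhibitor class. That class counts Serpinf1, whose product does not inhibit proteases. The 36 were chosen with earlier results of these data known, so shares set against those of all rows are descriptive. RNA sequencing covered 12 mouse libraries in 4 groups of 3: control GC2 cells, GC2 cells with PHB knockdown, control spermatocytes, and spermatocytes from Phb conditional knock-out mice. GC2 is an immortalised mouse line that the labels call a spermatocyte line, and it was grown in serum. The primary cells came from enzyme-digested seminiferous tubules and were enriched by flow sorting on a Hoechst DNA stain. Phb encodes prohibitin, a scaffold protein of the inner mitochondrial membrane. The labels give no method of knockdown, no Cre driver, no age of the mice and no statement on pooling. The separate cultures or animals behind the replicates are not named, so a p-value here reflects the spread of these samples alone, which may be technical.

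The extracellular matrix is the protein and sugar network around cells. Proteoglycans and fibre glycoproteins organise it, laminins and nidogens build the basement membrane, and matricellular proteins such as thrombospondins and osteopontin signal to cells rather than bear load. Metalloproteinases cut matrix proteins, and tissue inhibitors of metalloproteinases (TIMPs) block them. In the testis a basement membrane underlies the seminiferous epithelium, and Sertoli cells and peritubular myoid cells are known to build it together. Germ cells are not known as its main source.

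All levels are in FPKM, a fragment count divided by the length of the transcript and by the sequencing depth. The GC2 and spermatocyte tables were made with different gene rows, so levels are compared within each system only. Fold changes, also called log2 differences, were taken on log2(FPKM + 1), so those of low genes are understated. Every adjusted p is from limma with Benjamini-Hochberg adjustment over all tested rows, two-sided, and a call is an adjusted p under 0.05. Testing was limited to rows with at least 1 FPKM in 3 or more of the 6 libraries compared.

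The libraries were checked first. Phb was called lower in both comparisons, at 54.3 ± 2.15 against 20.0 ± 2.31 FPKM in GC2 cells (control first, mean ± SD, n = 3; log2 fold change -1.40, adjusted p = 0.00062) and at 13.3 ± 0.634 against 11.6 ± 0.241 FPKM in spermatocytes (-0.18, adjusted p = 0.0074). The spermatocyte call was lost with quantile normalization and with median centring. Of 10 markers of pachytene and diplotene spermatocytes, 5 had a row in GC2 cells, and these summed to 0.04 to 0.11 FPKM in control and 0.15 to 4.96 FPKM in knockdown libraries. In the same GC2 libraries 7 fibroblast markers summed to 291 to 313 FPKM in control and 159 to 167 FPKM in knockdown, most of it from Col1a1 and Col1a2. All 4 tested fibroblast markers fell, where 13.9% of all tested GC2 rows were called lower. Of 6 myoid markers, summed at 105 to 113 FPKM in control and 23.8 to 33.9 FPKM in knockdown, the smooth muscle actin gene Acta2 fell from 93.8 ± 4.53 to 16.9 ± 0.716 FPKM, and 4 were under 1 FPKM. The Sertoli markers Clu and Wt1 rose, from 10.08 ± 0.298 to 22.2 ± 1.23 FPKM and from 6.91 ± 0.856 to 9.46 ± 0.827 FPKM, while 6 of the 10, Sox9 and Amh among them, were under 1 FPKM. In GC2 cells the myoid marker Tagln shares its row with Sidt2 and Pafah1b2, and the fibroblast marker Pdgfra shares its row with Mir7025. The part of these markers in the GC2 matrix values was not tested. GC2 cells are therefore called here by the name of the line. In sorted control spermatocytes the 10 germ cell markers summed to 2675 to 2721 FPKM, against 242 to 244 FPKM in the knockout. All 10 fell, where 38.5% of all tested spermatocyte rows were called lower, but not alike. Ccna1, Pgk2, Tdrd6 and Adam3 reached 1 FPKM in control libraries only and so had to be lower to be tested. Ldhc, a lactate dehydrogenase gene of meiotic and later germ cells, went from 1428 ± 10.5 to 5.41 ± 0.630 FPKM. The synaptonemal complex genes Sycp1 and Sycp3 went from 68.99 ± 0.230 to 58.4 ± 1.36 FPKM and from 160.5 ± 4.60 to 124 ± 1.73 FPKM.

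A row was found for 34 of the 36 genes in GC2 cells and for 35 in spermatocytes. Eln and Serpine2 were not analysed in GC2 cells and Mmp3 was not analysed in spermatocytes. Some members stand on rows that name several genes, and their values may belong to any of these genes. These are Spp1 with Gm42793 in both systems, Lamb2 with Usp19 and Ecm1 with Tars2 and Rprd2 in GC2 cells, and Efemp2 with Fosl1 and Cfl1 in spermatocytes. In GC2 cells 31 members were tested, and Lum, Postn and Mgp lay below the filter. In spermatocytes 31 were tested, and Thbs2, Tnc, Postn and Vcan lay below it. The plot of levels by library shows every member.

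**Figure D1:**
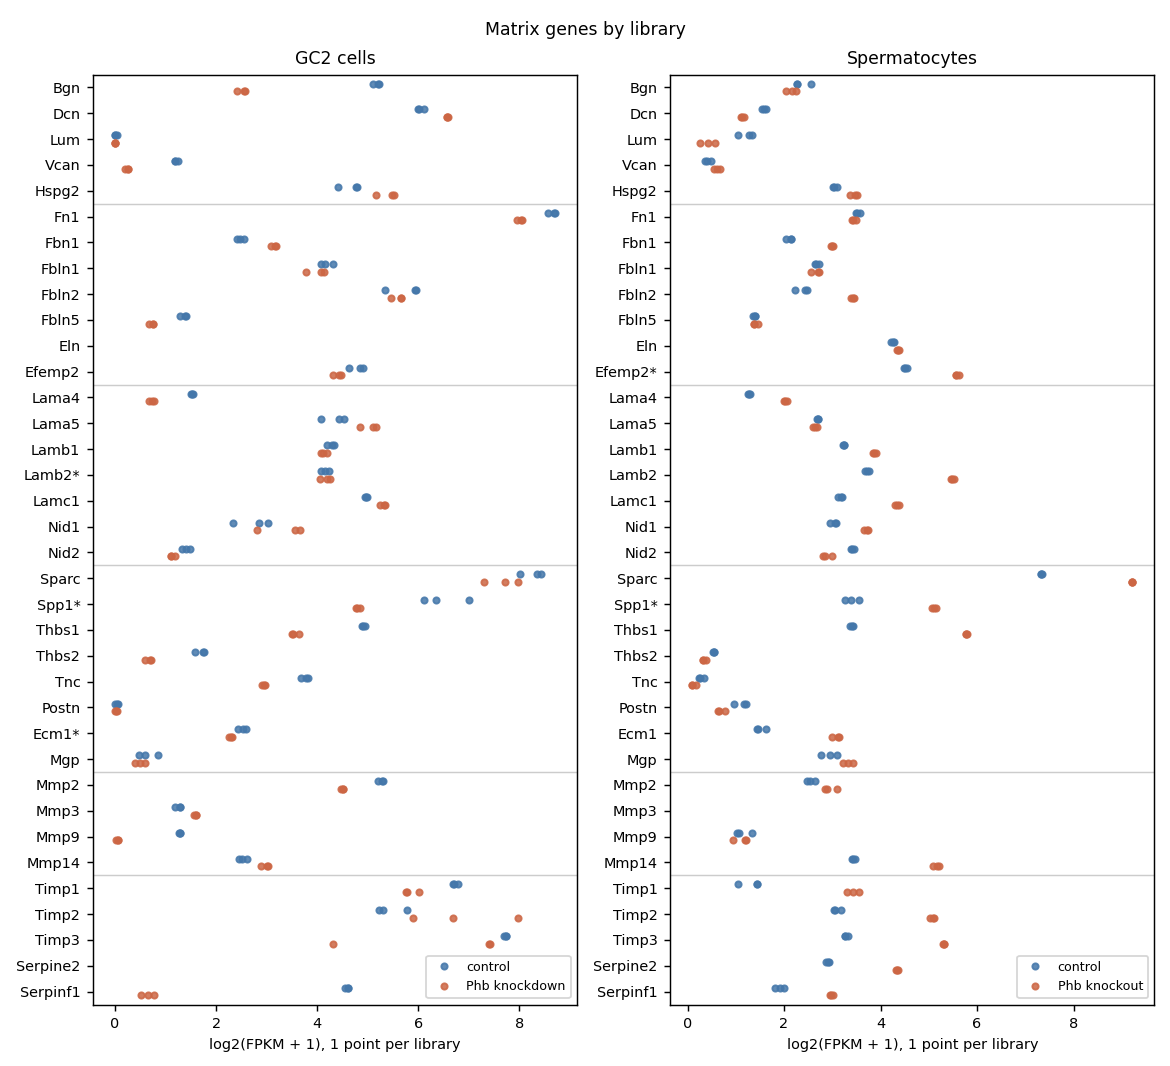
Level of each matrix gene as log2(FPKM + 1), 1 point per library, in GC2 cells (left) and spermatocytes (right), with control in blue and Phb knockdown or knockout in orange. Grey lines separate proteoglycans, fibre glycoproteins, basement membrane proteins, matricellular proteins, metalloproteinases and inhibitors from top to bottom, and an asterisk marks a row shared with another gene. The 2 groups of 3 points lie apart for most genes, and Timp2 and Timp3 show the widest spread among GC2 knockdown libraries.

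The promoters of 4 members are shown. Serpinf1 and Bgn had the largest falls in GC2 cells on log2(FPKM + 1). Spp1, Timp1 and Serpinf1 were called in opposite directions in the 2 systems. Each sequence is the 250 bases before the start site, 5′ to 3′ on the gene's strand, from RefSeq on GRCm38.p6. A window was used if its start site lay within 100 bases of the start of a transcript on the gene's row, which held for 25 of the 36 members. Capitals mark matches, on either strand, to the GC box (GGGCGG), the TATA box (TATAAA), the binding motif of nuclear factor Y (CCAAT), the motif of the AP-1 factors (TGANTCA) and the interferon-stimulated response element.
Bgn: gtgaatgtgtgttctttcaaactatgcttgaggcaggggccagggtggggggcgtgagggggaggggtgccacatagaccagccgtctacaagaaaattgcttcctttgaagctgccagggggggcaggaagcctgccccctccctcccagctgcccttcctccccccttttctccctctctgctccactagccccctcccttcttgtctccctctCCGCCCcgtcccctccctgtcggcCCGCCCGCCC
Spp1: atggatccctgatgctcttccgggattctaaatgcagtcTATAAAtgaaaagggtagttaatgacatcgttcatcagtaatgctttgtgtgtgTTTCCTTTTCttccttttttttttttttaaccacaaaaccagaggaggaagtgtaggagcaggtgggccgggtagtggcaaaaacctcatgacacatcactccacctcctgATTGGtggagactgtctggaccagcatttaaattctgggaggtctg
Timp1: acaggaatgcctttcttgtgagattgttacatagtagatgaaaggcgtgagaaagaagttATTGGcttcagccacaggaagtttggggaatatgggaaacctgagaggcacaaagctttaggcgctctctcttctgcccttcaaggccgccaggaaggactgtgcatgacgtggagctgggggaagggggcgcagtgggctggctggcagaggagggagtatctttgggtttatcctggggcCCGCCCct
Serpinf1: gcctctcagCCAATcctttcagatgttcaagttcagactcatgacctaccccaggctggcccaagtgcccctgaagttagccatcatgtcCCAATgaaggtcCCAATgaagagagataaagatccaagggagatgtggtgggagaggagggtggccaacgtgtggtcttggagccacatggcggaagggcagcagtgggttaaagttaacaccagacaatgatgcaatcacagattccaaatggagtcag
The Bgn window lies on chrX:73483351-73483600 (plus strand), Spp1 on chr5:104434861-104435110 (plus), Timp1 on chrX:20869916-20870165 (plus) and Serpinf1 on chr11:75422624-75422873 (minus). The windows differ in their motifs. Bgn holds 3 GC boxes, at -34, -10 and -6 from the start site, the last 2 overlapping. Timp1 holds 1 GC box at -8 and 1 CCAAT at -190. Serpinf1 holds 3 CCAAT matches and none of the other motifs, and Spp1 holds 1 TATA box at -211, 1 interferon-type match at -157 and 1 CCAAT at -46. Over the 25 members a GC box was found in 68.0% of windows, against 32.9% of 27025 windows of all genes, a TATA box in 24.0% against 13.0%, CCAAT in 40.0% against 34.5%, the interferon-type motif in 8.0% against 3.04% and AP-1 in 8.0% against 6.87%. The median GC content was 58.8% in member windows and 52.0% in all windows. These matches describe letters only.

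The first comparison asks how the matrix genes of GC2 cells differed after Phb knockdown. Most of the tested members were called, and more were lower than higher: 15 of 31 fell, 7 rose and 9 were not called. Over all rows tested 24.5% were called, 13.9% lower and 10.7% higher, beside 48.4% and 22.6% of the tested members. The members were chosen with earlier results of these data known, so this contrast is descriptive. At least 2-fold falls were seen in Bgn, Spp1, Thbs1, Thbs2, Mmp9 and Serpinf1, 6 of 31, where 2.21% of all rows fell that far. Control and knockdown libraries did not overlap in 27 members, against 44.9% of all rows. The 6 members Fbln5, Thbs2, Vcan, Lama4, Mmp9 and Serpinf1 reached the filter through control libraries only and so had to differ to be tested. The 2-fold falls of Thbs2, Mmp9 and Serpinf1 are among them, and all 6 count in the 27 without overlap. Without these 6, 9 of 25 members fell and 7 rose, so the excess of falls over rises rests largely on them. Among the 23 tested members with a mean of at least 5 FPKM over the 6 libraries, 9 fell (39.1%) and 6 rose (26.1%), where 15% and 11.4% of all such rows did and 26.3% were called. The 9 falls include Serpinf1, without which 8 of 22 fell. The median log2 fold change of these 23 was -0.19, and that of all tested rows was -0.04. Without knockdown replicate 2, 4 members in place of 7 were called higher.

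Proteoglycans went both ways in GC2 cells. Bgn encodes biglycan, a small leucine-rich proteoglycan that binds collagen (chromosome X, 73483602 to 73495933, plus strand, GRCm38). It held 33.5, 36.1 and 35.7 FPKM in control libraries and 4.33, 4.91 and 4.88 FPKM in knockdown libraries. The groups lie far apart, with a mean 7.45 times lower in the knockdown (log2 fold change -2.66, SE 0.064, adjusted p = 3.1e-05). Dcn encodes decorin, the closest relative of biglycan, and rose from 68.3, 62.9 and 64.00 to 94.9, 94.1 and 94.3 FPKM (log2 difference 0.53, SE 0.045, adjusted p = 0.0015). These closely related genes thus moved in opposite directions. Hspg2, which encodes the basement membrane proteoglycan perlecan, rose from 24.4 ± 3.67 to 41.2 ± 5.50 FPKM (log2 difference 0.73, adjusted p = 0.023). That call was lost without control replicate 3 or knockdown replicate 2 or 3, at adjusted p = 0.051, 0.075 and 0.074. Vcan, which encodes the large proteoglycan versican, fell from 1.30 ± 0.0513 to 0.183 ± 0.0289 FPKM, and Lum, which encodes lumican, was at 0.02 FPKM in 1 control library and listed at 0 in the other 5 libraries.

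Of the fibre glycoproteins, 3 of 6 tested fell and 1 rose, where 13.9% and 10.7% of all rows did. Of the falls, Fbln5 passed the filter through control libraries only. Fn1 encodes fibronectin, the integrin ligand of the provisional matrix, and was the most abundant member in both GC2 groups. It fell from 402 ± 21.7 to 256 ± 9.36 FPKM (log2 difference -0.65, SE 0.055, adjusted p = 0.0015). Fbln5, whose product fibulin-5 guides elastic fibre assembly, fell from 1.56 ± 0.110 to 0.657 ± 0.0577 FPKM. Fbn1 encodes fibrillin-1, the core of microfibrils, and rose from 4.58 ± 0.262 to 7.85 ± 0.356 FPKM (log2 difference 0.66, adjusted p = 0.0020). Efemp2, which encodes fibulin-4, fell from 26.7 ± 2.77 to 20.2 ± 1.33 FPKM at adjusted p = 0.039. This weak call was lost without control replicate 2 or 3 or any of the knockdown replicates, at adjusted p = 0.11, 0.11, 0.097, 0.075 and 0.095. Fbln1 and Fbln2, which encode fibulin-1 and fibulin-2, were not called and their groups overlapped, at 17.2 ± 1.61 against 15.02 ± 1.95 FPKM and 53.4 ± 11.99 against 47.5 ± 3.65 FPKM.

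Laminin chains, which assemble as trimers of an alpha, a beta and a gamma chain, differed among themselves. Lama4 encodes the alpha-4 chain found in vessels and held 1.84, 1.86 and 1.92 FPKM in control and 0.70, 0.60 and 0.66 FPKM in knockdown libraries (log2 fold change -0.80, SE 0.059, adjusted p = 0.00093). Lama5, the alpha-5 chain gene, rose from 19.5 ± 3.13 to 31.9 ± 3.79 FPKM (log2 difference 0.69, adjusted p = 0.025). The Lama5 call was lost without control replicate 3 or knockdown replicate 2 or 3, at adjusted p = 0.063, 0.081 and 0.083. Lamc1, which encodes the gamma-1 chain shared by most laminins, rose from 30.2 ± 0.426 to 38.4 ± 1.51 FPKM (log2 difference 0.34, adjusted p = 0.0064). The beta chain genes were not called, with Lamb1 at 18.4 ± 0.887 against 16.5 ± 0.749 FPKM and the row of Lamb2 and Usp19 at 16.8 ± 0.937 against 17.1 ± 1.27 FPKM. Nidogens link laminin to collagen IV. Nid2 was called lower, at 1.66 ± 0.145 against 1.20 ± 0.0808 FPKM (adjusted p = 0.044), and lost the call whichever single library was left out, at adjusted p = 0.054 to 0.13. Nid1 was not called, with 6.18, 7.16 and 4.05 FPKM in control and 10.8, 11.6 and 5.98 FPKM in knockdown libraries, where replicate 3 is the lowest of each group.

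Matricellular genes held 4 falls and no rise among 6 tested, where 13.9% of all rows fell and 10.7% rose. Of these falls, Thbs2 passed the filter through control libraries only. Thbs1 encodes thrombospondin-1, which activates latent TGF-beta and restrains vessel growth (chromosome 2, 118111876 to 118127133, plus strand, GRCm38). It held 29.8, 28.6 and 29.1 FPKM in control and 11.5, 10.5 and 10.3 FPKM in knockdown libraries, with a tight spread in both groups (log2 fold change -1.36, SE 0.058, adjusted p = 0.00017). Its relative Thbs2 fell from 2.24 ± 0.200 to 0.583 ± 0.0723 FPKM (log2 difference -1.03). The row of Spp1, which encodes osteopontin, and Gm42793 held 80.1, 127 and 68.4 FPKM in control and 27.9, 26.6 and 26.4 FPKM in knockdown libraries (log2 fold change -1.68, SE 0.23, adjusted p = 0.0066). The control libraries of that row spread widely, yet the lowest lies above every knockdown library. Tnc, which encodes the anti-adhesive glycoprotein tenascin-C, fell from 12.6 ± 0.705 to 6.67 ± 0.156 FPKM (log2 difference -0.82, adjusted p = 0.00082). Sparc encodes osteonectin, a collagen-binding glycoprotein, and was the second most abundant member. It held 342, 259 and 324 FPKM in control and 209, 157 and 249 FPKM in knockdown libraries, which do not overlap, but was not called (log2 fold change -0.60, adjusted p = 0.088). The row of Ecm1, Tars2 and Rprd2 was at 4.71 ± 0.318 against 3.90 ± 0.104 FPKM, with no call (adjusted p = 0.058), and was called without control replicate 1 (adjusted p = 0.048).

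All 4 metalloproteinases were called in GC2 cells, 2 in each direction, where 24.5% of all rows were called. Of the falls, Mmp9 passed the filter through control libraries only. Mmp2 encodes gelatinase A and held 35.8, 38.6 and 37.8 FPKM in control and 21.7, 21.7 and 21.1 FPKM in knockdown libraries (log2 fold change -0.77, SE 0.047, adjusted p = 0.00052). Mmp14 encodes the membrane-anchored enzyme that activates the proform of gelatinase A, and rose from 4.75 ± 0.356 to 6.86 ± 0.372 FPKM (log2 difference 0.45, adjusted p = 0.0099). The enzyme and its activator thus moved in opposite directions. Mmp9, the gelatinase B gene, was low throughout, at 1.40, 1.43 and 1.44 FPKM in control and 0.01, 0.04 and 0.04 FPKM in knockdown libraries (log2 fold change -1.23, adjusted p = 0.00025). Mmp3, which encodes stromelysin-1, rose from 1.37 ± 0.0896 to 2 ± 0.0529 FPKM, and its adjusted p of 0.014 became 0.052 without knockdown replicate 2.

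In the inhibitor class, Serpinf1 had the largest fall of all tested members on log2(FPKM + 1). It encodes pigment epithelium-derived factor, a secreted serpin without protease inhibition that restrains vessel growth (chromosome 11, 75409769 to 75422701, minus strand, GRCm38). It held 22.4, 23.5 and 23.2 FPKM in control and 0.42, 0.57 and 0.71 FPKM in knockdown libraries, 40.7 times lower by the means (log2 fold change -3.94, SE 0.082, adjusted p = 2.5e-05). By the ratio of group means Mmp9, low throughout, fell further, 47.4 times. Timp1 encodes a secreted inhibitor of most metalloproteinases and held 104, 103 and 109.9 FPKM in control and 63.5, 53.9 and 52.9 FPKM in knockdown libraries (log2 fold change -0.89, SE 0.083, adjusted p = 0.0020). Timp1 and Serpinf1 were separated without overlap. The other two TIMP genes varied strongly between knockdown libraries. Timp3, whose product binds to the matrix, held 206, 212 and 211 FPKM in control and 18.8, 171 and 168 FPKM in knockdown libraries. Only knockdown replicate 1 is far down, and Timp3 was not called (log2 fold change -1.34, adjusted p = 0.34). Without that library the log2 fold change was -0.30 and was called (adjusted p = 0.010). Timp2, whose product also takes part in activating gelatinase A, held 53.5, 36.5 and 38.6 FPKM in control and 102, 250.2 and 58.7 FPKM in knockdown libraries. All knockdown values lie above the controls, but they differ so much among themselves that Timp2 was not called (log2 fold change 1.42, adjusted p = 0.12). Of 2018 GC2 rows with a mean of at least 20 FPKM, 8 to 25 per library stood at least 4-fold from both other libraries of the group, against 1 to 4 of 2447 such rows in spermatocytes.

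**Figure D2:**
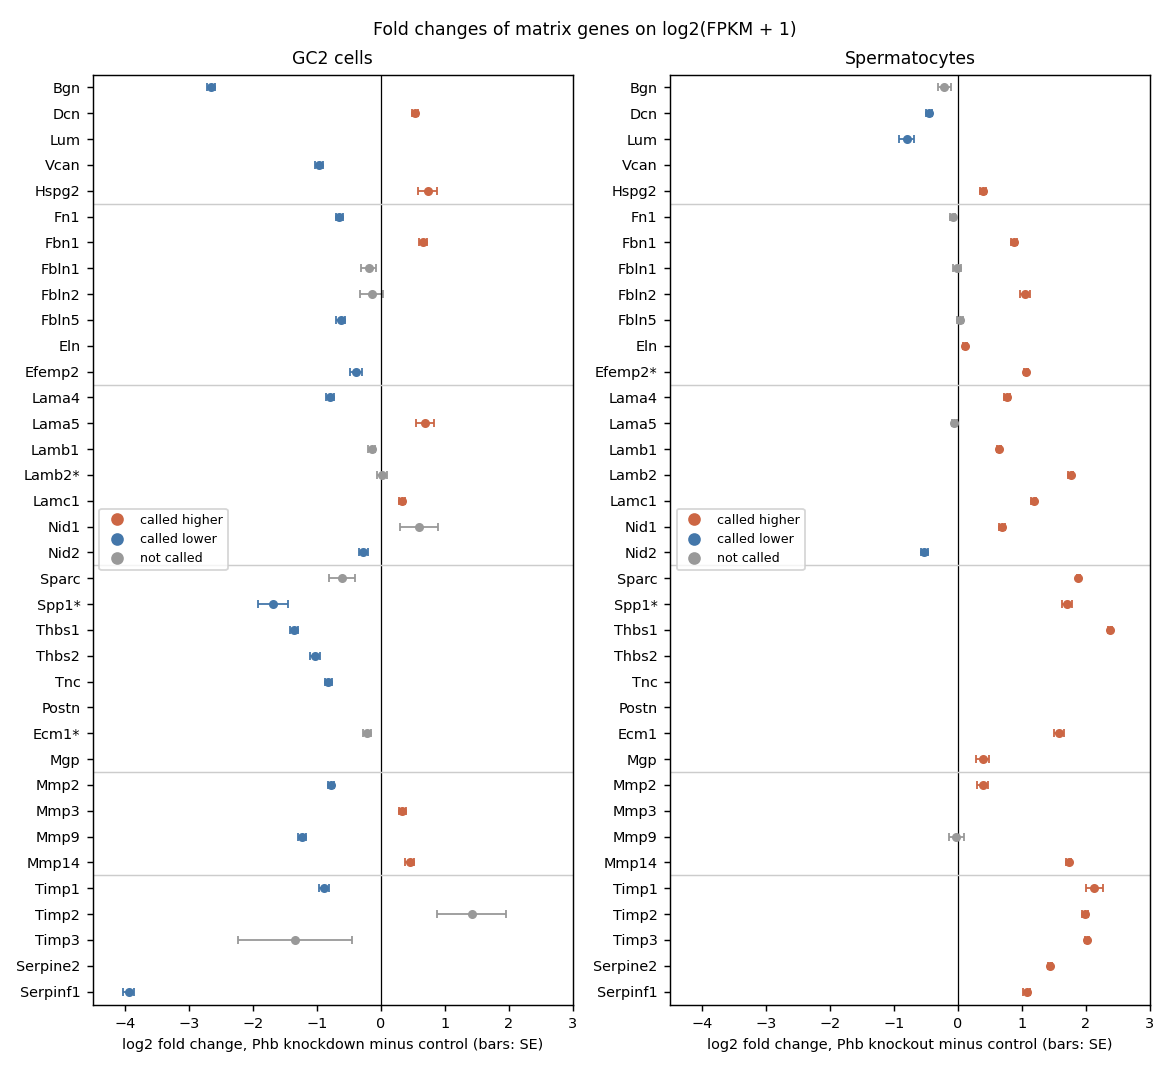
Log2 fold change of each tested matrix gene with its standard error, knockdown minus control in GC2 cells (left) and knockout minus control in spermatocytes (right), on log2(FPKM + 1). Orange marks genes called higher, blue called lower and grey not called; genes below the filter or without a row have no point, and an asterisk marks a shared row. In GC2 cells 15 genes are blue and 7 orange, and in spermatocytes 3 are blue and 22 orange.

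The second comparison asks how the matrix genes of spermatocytes differed in the Phb knockout. Here the matrix genes were mostly higher: 22 of 31 tested rose, 3 fell and 6 were not called. Over all rows tested 79.4% were called, so the 80.6% of members called is near the background. The direction and size were not: 71.0% of tested members rose against 40.9% of all rows, 9.68% fell against 38.5%, and 14 of 31 rose at least 2-fold on the log2 scale, where 11.6% of all rows did. The members were chosen with earlier results of these data known, so this contrast with all rows is descriptive. The groups did not overlap in 26 members, against 81.8% of all rows. Lum reached the filter through control libraries only. Of the 23 tested members with a mean of at least 5 FPKM, 19 rose (82.6%) and 1 fell (4.35%), against 45.3% and 38.0% of all such rows, of which 83.3% were called. Their median log2 fold change was 1.05 and that of all tested rows 0.05. The members summed to 362 to 367 FPKM in control libraries and 1060 to 1073 FPKM in knockout libraries, and to 203 to 206 and 471 to 478 FPKM with Sparc left out. The mitochondrial share of all FPKM was 12.2% to 13.6% in the controls against 17.1% to 19.5% in the knockout, and its part in these values was not tested. These are bulk samples, in which fewer cells of a type and less RNA per cell cannot be told apart.

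Markers of somatic testis cells moved in the same knockout libraries, where 40.9% of all rows were called higher and 38.5% lower. Of 10 Sertoli cell markers 9 rose, and they summed to 680 to 769 FPKM in control and 2850 to 3056 FPKM in knockout libraries, with a median log2 fold change of 1.83. All 6 tested of 7 Leydig cell markers rose (summed 19.8 to 20.4 against 192 to 196 FPKM), as did all 6 endothelial markers (13.2 to 13.5 against 24.0 to 25.7 FPKM) and all 5 tested of 7 macrophage markers (11.9 to 13.5 against 22.4 to 24.9 FPKM). Hsd3b6, Vwf, Emcn and Csf1r passed the filter through knockout libraries only and so had to be higher to be tested. Of the untested macrophage markers, Cx3cr1 was lower, at 0.857 against 0.607 FPKM, and Adgre1 higher, at 0.693 against 0.863 FPKM. Of 6 peritubular myoid markers 3 rose and 1 fell (30.2 to 31.9 against 39.9 to 41.0 FPKM). Actg2 fell from 11.3 ± 0.146 to 1.48 ± 0.494 FPKM. Of the rises, Acta2 went from 10.7 ± 0.494 to 25.9 ± 0.210 FPKM, and those of Myh11 and Tagln were smaller. Of 7 fibroblast markers 3 fell and none rose (35.0 to 36.6 against 15.1 to 15.5 FPKM). The 3 are the collagen genes Col1a1, Col1a2 and Col3a1, and Pdgfra was tested and not called. Thy1, Pdgfrb and Dpt were under 1 FPKM in both groups. Some of these markers stand on shared rows: Insl3 with Jak3, Cyp11a1 with Gm17322, Dhh with Rhebl1 and Col3a1 with Gm47302. The row of Insl3 and Jak3 was at 3.10 against 82.5 FPKM. The part of these cells in the matrix values below was not tested.

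Basement membrane genes rose in 5 of 7, where 40.9% of all rows were called higher. Lamb2 encodes the laminin beta-2 chain and held 12.6, 11.7 and 12.3 FPKM in control and 44.8, 43.5 and 42.9 FPKM in knockout libraries (log2 fold change 1.76, SE 0.035, adjusted p = 9.2e-08). Lamc1 held 7.69, 8.15 and 8 FPKM in control and 19.4, 18.6 and 20.0 FPKM in knockout libraries (log2 fold change 1.18, SE 0.040, adjusted p = 8.3e-07). Both rose more than 2-fold with no overlap, and the laminin beta-1 gene Lamb1 rose less, from 8.37 ± 0.0833 to 13.6 ± 0.322 FPKM. Lama4 held 1.45, 1.37 and 1.40 FPKM in control and 3.05, 3.20 and 2.99 FPKM in knockout libraries (log2 fold change 0.76, SE 0.046, adjusted p = 1.2e-05). The other alpha chain did not follow, with Lama5 at 5.49 ± 0.0529 against 5.25 ± 0.201 FPKM and no call (adjusted p = 0.26), a value that turned to a called rise with quantile normalization and median centring (0.10 and 0.11 on the log2 scale). The nidogens parted: Nid1 rose from 7.14 ± 0.329 to 12.1 ± 0.427 FPKM, while Nid2 fell from 9.63 ± 0.242 to 6.39 ± 0.467 FPKM (log2 differences 0.69 and -0.53).

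All 5 tested matricellular genes rose, 4 of them more than 2-fold, where 40.9% of all rows rose and 11.6% rose at least 2-fold. Sparc was the most abundant member in both groups and held 162, 158 and 159 FPKM in control and 595, 589.9 and 591 FPKM in knockout libraries (log2 fold change 1.89, SE 0.021, adjusted p = 1.4e-08). Thbs1 held 9.38, 9.59 and 9.71 FPKM in control and 53.4, 53.6 and 54.5 FPKM in knockout libraries (log2 fold change 2.38, SE 0.026, adjusted p = 1.4e-08). Thbs1 had the largest log2 fold change of the tested members, and Sparc added the most FPKM. The row of Spp1 and Gm42793 held 8.66, 9.45 and 10.7 FPKM in control and 33.6, 32.4 and 34.4 FPKM in knockout libraries (log2 fold change 1.71, SE 0.072, adjusted p = 2.4e-06). Ecm1 encodes extracellular matrix protein 1, a secreted glycoprotein that binds perlecan, and held 1.70, 2.08 and 1.74 FPKM in control and 7.72, 7.78 and 6.91 FPKM in knockout libraries (log2 fold change 1.58, SE 0.074, adjusted p = 3.8e-06). Mgp, whose product matrix Gla protein inhibits calcification, rose from 6.70 ± 0.871 to 9.03 ± 0.749 FPKM. The other 3 lay below the filter and were not tested. Thbs2 was at 0.457 against 0.267 FPKM, Tnc at 0.217 against 0.0900 FPKM and Postn, which encodes periostin, at 1.17 against 0.613 FPKM.

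Among fibre glycoproteins 4 of 7 rose and none fell, where 40.9% of all rows rose and 38.5% fell. Fbln2 held 4.60, 4.38 and 3.65 FPKM in control and 9.40, 9.80 and 9.98 FPKM in knockout libraries (log2 fold change 1.05, SE 0.077, adjusted p = 3.2e-05). Fbn1 rose from 3.32 ± 0.200 to 6.94 ± 0.132 FPKM (log2 difference 0.88). The row of Efemp2, Fosl1 and Cfl1 held 21.7, 22.4 and 21.5 FPKM in control and 48.3, 46.0 and 46.5 FPKM in knockout libraries (log2 fold change 1.07, SE 0.031, adjusted p = 4.4e-07), and Cfl1 encodes cofilin, a widely expressed actin-binding protein, so the change may not be given to Efemp2. The elastin gene Eln rose by little, from 18.03 ± 0.340 to 19.5 ± 0.321 FPKM (log2 difference 0.11, adjusted p = 0.013). Fn1, Fbln1 and Fbln5 were not called and their groups overlapped, with fibronectin at 10.5 ± 0.350 against 9.86 ± 0.365 FPKM. Fbln5 was called higher with quantile normalization and median centring (adjusted p = 0.0004 and 0.014).

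Of 4 tested proteoglycans 2 fell, 1 rose and 1 was not called, where 38.5% of all rows fell and 40.9% rose. Dcn held 2.01, 2.09 and 1.92 FPKM in control and 1.14, 1.24 and 1.20 FPKM in knockout libraries (log2 fold change -0.45, SE 0.049, adjusted p = 0.00020). Lum, which encodes another collagen-binding proteoglycan, fell from 1.34 ± 0.248 to 0.340 ± 0.150 FPKM (log2 difference -0.80, adjusted p = 0.00086). Both falls lost their call with quantile normalization, at adjusted p = 0.25 and 0.66, a scaling that moved the median of all tested rows from 0.05 to 0.28. Bgn was at 4.17 ± 0.598 against 3.44 ± 0.318 FPKM with no call (adjusted p = 0.089), while Vcan, below the filter and not tested, was at 0.340 against 0.530 FPKM. Hspg2 rose from 7.31 ± 0.233 to 9.92 ± 0.503 FPKM (log2 difference 0.39, adjusted p = 0.00036). In the same libraries 3 of 7 fibroblast markers were also lower, all of them collagen genes, with Col1a2 at 7.11 against 2.36 FPKM. The only other tested marker, Pdgfra, was not called, at 1.00 against 1.16 FPKM.

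All 5 genes of the inhibitor class, Serpinf1 included, rose at least 2-fold on the log2 scale, where 11.6% of all rows did. Timp1 held 1.71, 1.71 and 1.05 FPKM in control and 9.84, 8.91 and 10.8 FPKM in knockout libraries (log2 fold change 2.13, SE 0.13, adjusted p = 1.4e-05). Timp2 held 7.20, 8.02 and 7.34 FPKM in control and 33.0, 33.7 and 31.6 FPKM in knockout libraries (log2 fold change 1.99, SE 0.048, adjusted p = 2.1e-07). Timp3 held 9.08, 8.54 and 8.56 FPKM in control and 38.8, 38.0 and 38.9 FPKM in knockout libraries (log2 fold change 2.02, SE 0.033, adjusted p = 4.5e-08). By the ratio of group means Timp1 rose 6.61-fold, Timp2 4.36-fold and Timp3 4.42-fold, and the differences between these genes were not tested. Serpine2 encodes protease nexin-1, an inhibitor of thrombin and plasminogen activators, and held 6.29, 6.68 and 6.52 FPKM in control and 19.0, 19.5 and 19.3 FPKM in knockout libraries (log2 fold change 1.44, SE 0.033, adjusted p = 1.8e-07). Serpinf1 held 2.97, 2.79 and 2.49 FPKM in control and 6.78, 7.05 and 6.83 FPKM in knockout libraries (log2 fold change 1.07, SE 0.059, adjusted p = 7.7e-06).

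Among the proteases Mmp14 moved most. It held 9.57, 9.78 and 10.0 FPKM in control and 35.1, 36.3 and 33.2 FPKM in knockout libraries (log2 fold change 1.73, SE 0.041, adjusted p = 1.8e-07). Mmp2 held 4.59, 4.80 and 5.23 FPKM in control and 7.54, 6.18 and 6.36 FPKM in knockout libraries (log2 fold change 0.39, SE 0.082, adjusted p = 0.0052). Both rose without overlap, Mmp14 by far more. Mmp9 was low and was not called, at 1.21 ± 0.275 against 1.17 ± 0.227 FPKM. With quantile normalization it was called higher (log2 fold change 0.57, adjusted p = 0.014).

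The third comparison asks whether members moved differently in the 2 systems. It used the 24 members tested in both on rows of the same name, fitted with all 12 libraries. The fold changes differed in 20 of 24 (83.3%), against 60.7% of all 8754 genes, and in 17 (70.8%) the spermatocyte value was the higher, against 38.1% of all genes. The members Thbs1, Spp1, Timp1, Serpinf1, Lama4 and Mmp2 fell in GC2 cells and rose in spermatocytes, 25.0% of the 24, where 7.15% of all genes did so. Lama4, Serpinf1, Fbln5 and Mmp9 passed the GC2 filter through control libraries only. Without these, 16 of 20 members differed and 4 of 20 fell in GC2 cells and rose in spermatocytes. The difference, spermatocytes minus GC2, was 3.74 (SE 0.062, adjusted p = 2.5e-10) for Thbs1, 5.02 (SE 0.10, adjusted p = 4.5e-10) for Serpinf1 and 3.02 (SE 0.17, adjusted p = 1.9e-07) for Timp1. Of the 24, only Dcn went the other way, higher in GC2 cells and lower in spermatocytes, as did 2.48% of all genes (difference -0.99, SE 0.060, adjusted p = 3.6e-07), but its fall in spermatocytes was not called with quantile normalization. In both systems Fbn1, Lamc1, Hspg2 and Mmp14 rose, as did 5.47% of all genes, and Nid2 fell, as did 3.63%. Mmp14 and Lamc1 rose more in spermatocytes (differences 1.28 and 0.84), and for Hspg2 no difference was called (-0.34, SE 0.17, adjusted p = 0.10).

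**Figure D3:**
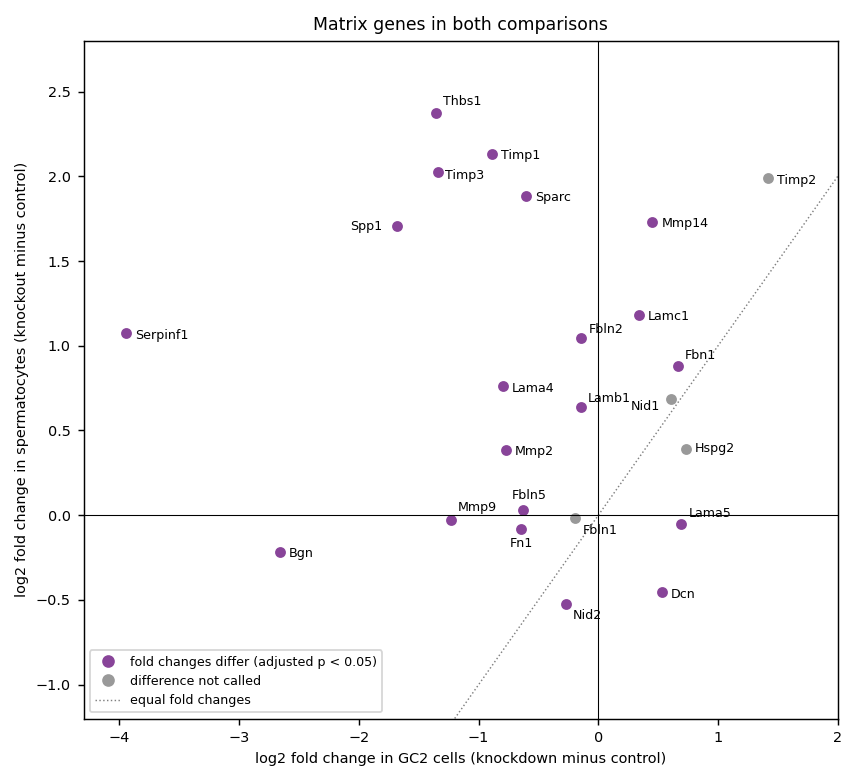
Log2 fold change in GC2 cells (horizontal axis, knockdown minus control) against that in spermatocytes (vertical axis, knockout minus control) for the 24 matrix genes tested in both, on log2(FPKM + 1). Purple points have fold changes that differ at an adjusted p under 0.05 and grey points do not; the dotted line marks equal fold changes. Most points lie above the line, with Thbs1, Timp1, Spp1 and Serpinf1 in the upper left.

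**Figure D4:**
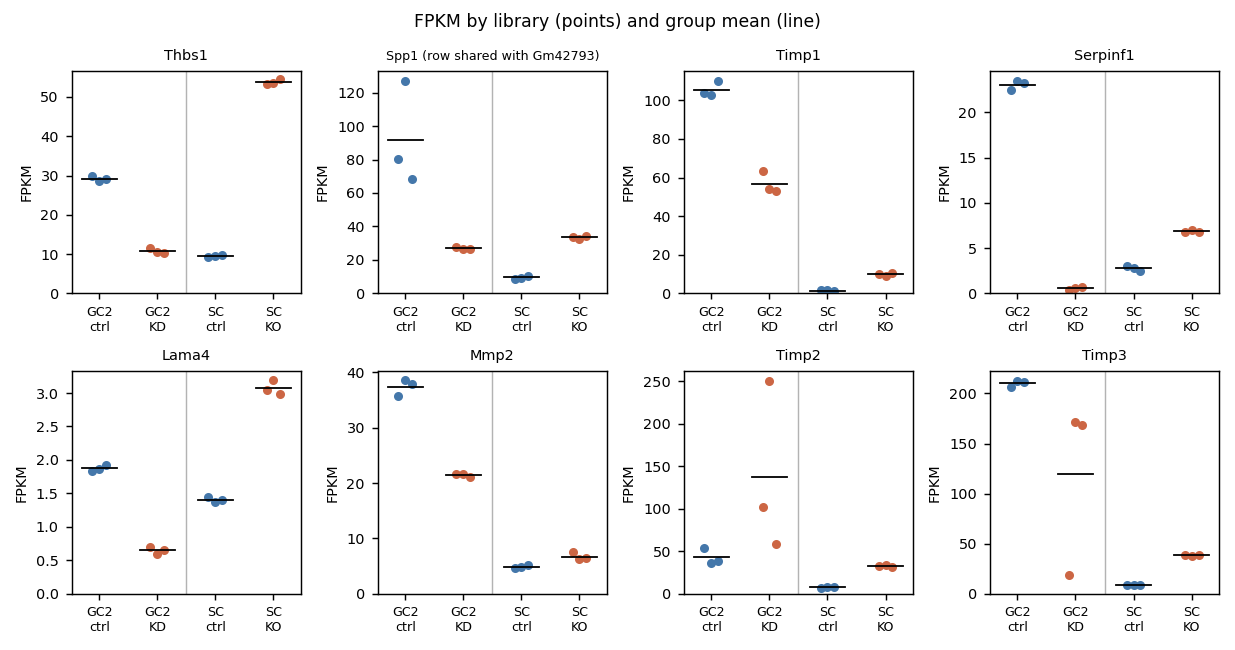
FPKM of 8 matrix genes in each library (points) with the group mean (line) for control (blue) and Phb knockdown or knockout (orange), GC2 cells left and spermatocytes (SC) right of the grey line in each panel. The axes start at 0 and differ between panels, and levels are comparable only within a system. Thbs1, Spp1, Timp1, Serpinf1, Lama4 and Mmp2 are lower in GC2 knockdown and higher in spermatocyte knockout, and in GC2 knockdown 1 library is low for Timp3 and 1 is high for Timp2.

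Other genes of the matrix pathway were counted from 7 further lists. In GC2 cells 24.5% of all rows were called, 10.7% higher and 13.9% lower. Other matrix glycoproteins there rose in 7 and fell in 6 of 16 tested. Igfbp7, which encodes an insulin-like growth factor binding protein of the matrix, fell from 9.87 ± 2.28 to 0.920 ± 0.276 FPKM, and Npnt, which encodes the integrin ligand nephronectin, rose from 6.51 ± 0.407 to 13.0 ± 0.217 FPKM. Other proteoglycans rose in 1 and fell in 2 of 5, with the syndecan gene Sdc4 going from 139 ± 10.8 to 200.1 ± 17.0 FPKM. Other matrix proteases rose in 2 and fell in 5 of 14, and the tissue plasminogen activator gene Plat rose from 9.19 ± 0.410 to 16.4 ± 0.342 FPKM. Other inhibitors and regulators fell in 2 of 5, and Serpinb9, which encodes an intracellular serpin, fell from 15.7 ± 1.17 to 9.71 ± 1.61 FPKM. Matrix receptors rose in 4 and fell in 4 of 16, with the fibronectin receptor gene Itga5 falling from 24.4 ± 1.95 to 14.7 ± 0.923 FPKM in the libraries where Fn1 fell. The laminin list held 1 tested gene, which rose. Of 10 tested TGF-beta ligands, receptors and mediators limma called 0, with 3 at an unadjusted p under 0.05. Some genes of these lists passed the GC2 filter through 1 group only and so had to differ to be tested. Emilin2, Ltbp2, Mmp19, Adamts2, Itgb8 and the row of Itga1 and Pelo did so through control libraries, and all were called lower. Tnxb and Itgb4 did so through knockdown libraries and were called higher.

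In spermatocytes 79.4% of all rows were called, 40.9% higher and 38.5% lower, and the Sertoli marker median was 1.83. These lists mostly rose there. Some of their genes passed the filter through knockout libraries only and so had to be higher to be tested. These were Matn4, Spon1, Tinagl1, Aspn, Lamc3, Mmp15, Adamts4, Serpinb9, Plaur, Tgfb2 and Tgfbr2. Mfap5 and the row of Itga1, both called lower, passed it through control libraries only. Other matrix glycoproteins rose in 16 and fell in 5 of 22, and Ccn1, which encodes a matricellular integrin ligand, went from 90.2 ± 2.14 to 377 ± 2.103 FPKM. Other proteoglycans rose in 10 and fell in 4 of 14, with Spock2 going from 52.3 ± 2.40 to 157 ± 0.896 FPKM. All 4 tested laminin genes rose, and Lama1, the alpha-1 chain gene, went from 6.38 ± 0.234 to 24.8 ± 0.160 FPKM. All 12 tested proteases, all 8 inhibitors and regulators and all 11 TGF-beta genes rose, with Plat at 4.31 ± 0.144 against 15.8 ± 0.988, the cystatin C gene Cst3 at 72.0 ± 2.97 against 217 ± 3.60 and Tgfb3 at 6.08 ± 0.374 against 23.5 ± 0.348 FPKM. Matrix receptors rose in 9 and fell in 1 of 14, with the dystroglycan gene Dag1, a laminin receptor, going from 31.5 ± 0.184 to 68.9 ± 0.235 FPKM and the collagen receptor gene Ddr1 from 16.5 ± 0.769 to 63.0 ± 1.92 FPKM.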

How the data were processed

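The authors deposited FPKM values, rounded to 2 decimals, for each gene row in each library. The submitters' processing notes list HISAT2 2.1.0, DESeq, GRCm38 and mm10 without roles. The quantifier, annotation and filters applied upstream were not stated there. Per the labels' protocols a directional kit was used. Depth is unknown: at most 43.0% of low values per library lay within 0.1 of a whole number of fragments at any depth tried, so reads were not recovered and no count test was run. FPKM totals were 194949 to 206711 in GC2 and 289707 to 297362 in spermatocyte libraries, and FPKM leaves composition uncorrected.

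Groups were taken from sample titles. A member's row is the one with its name, or the highest of several. Rows without a gene name were left out. limma 3.58.1 (R 4.3.3) was run with a mean-variance trend on log2(FPKM + 1), without a block, and was tested on simulated data. Replicate numbers were not taken as pairs, since not every same-numbered correlation passed 0.1: same-numbered deviations correlated at 0.061 to 0.12 in GC2 and -0.054 to 0.0074 in spermatocytes. The design allowed for counts or normalized values, and the latter applied. Gene positions come from GENCODE on GRCm38. The members and lists were chosen with earlier results of these data known. Members were named in full if called with a log2 fold change of at least 1 and 5 FPKM, or called in opposite directions, and of other lists at most 3 called genes of at least 5 FPKM. A gene that this rule names is not reported here. Alternatives were the pseudocount, the filter, scaling, summed rows, a block and leaving out each library. Tables and plots used Python 3.11.15 with matplotlib 3.10.9, numpy 2.4.6 and pandas 2.3.3.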

Additional observations from a re-analysis of the deposited data

Results flagged for a closer look

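For 20 of the 24 members tested in both systems, the fold change in spermatocytes differed from that in GC2 cells in the limma fit of all 12 libraries (adjusted p under 0.05). A difference was called for 60.7% of all 8754 genes. Serpinf1, Lama4, Mmp9 and Fbln5 passed the GC2 filter through control libraries only, and without them 16 of 20 members differed. Values are the spermatocyte minus the GC2 log2 fold change. The difference was 5.02 for Serpinf1, 3.36 for Timp3 and 3.02 for Timp1, and no difference was called for Timp2. Among matricellular genes it was 3.74 for Thbs1, 3.39 for the shared row of Spp1 and 2.49 for Sparc. Timp3 rests on GC2 knockdown libraries of which replicate 1 is far below the others.

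Bgn differed by 2.45, with a fall in GC2 cells and no call in spermatocytes. Among basement membrane genes the difference was 1.56 for Lama4, 0.84 for Lamc1, 0.78 for Lamb1, -0.75 for Lama5 and -0.25 for Nid2. Metalloproteinase genes differed by 1.28 (Mmp14), 1.21 (Mmp9) and 1.16 (Mmp2). Fibre genes differed by 1.19 (Fbln2), 0.66 (Fbln5), 0.57 (Fn1) and 0.21 (Fbn1), and Dcn by -0.99. The 2 systems differ in cell type, in how Phb was depleted and in their gene rows, which cannot be told apart here. In the knockout libraries most tested Sertoli, Leydig, endothelial and macrophage markers were called higher. Myoid markers went both ways and 3 fibroblast markers were called lower. The part of these cells in the differences was not tested.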

How the results depend on the processing

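Without 1 library, members called higher in GC2 cells ranged from 4 to 7 and lower from 13 to 15; in spermatocytes they stayed at 22 and 3. The count of differences between systems ranged from 18 to 21. In spermatocytes 6 members were called lower without a filter and 1 with quantile normalization, against 3. Phb in spermatocytes went to -0.0702 with quantile normalization and -0.0235 with median centring (adjusted p = 0.17 and 0.63). With quantile normalization and median centring, Lama5 in spermatocytes turned to 0.10 and 0.11 and, with the former, Mmp9 to 0.57; the cause was not tested. These 2 scalings moved the median of all spermatocyte rows to 0.28 and 0.21, and the share of calls that were higher from 51.6% to 62.0% and 59.2%, and in GC2 from 43.5% to 53.6% and 52.7%.

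With a replicate block the same numbers of members were called (7 and 15 in GC2, 22 and 3 in spermatocytes), Nid1 and Sparc gained a call in GC2 (adjusted p = 0.029 and 0.039), Mmp3 and Nid2 lost theirs (adjusted p = 0.058 and 0.12), and 1985 in place of 2649 GC2 rows were called. Each GC2 library correlated best with its own number, a hint from the data and not from the design. Without members that reached the filter through 1 group only, chosen after seeing the data, 9 in place of 15 members fell in GC2. Counted on rows of 1 gene only, also chosen after seeing the data, 7 members rose and 14 fell in GC2 and 20 rose and 3 fell in spermatocytes. The Fbn1 and Nid2 differences between systems were each lost without 5 single libraries, and that of Nid2 also with pseudocount 0.1 and both scalings. Without a filter Efemp2, Mmp3 and Nid2 lost their GC2 calls. The Timp2 difference was called without knockdown replicate 2 (1.13) and that of Hspg2 without knockdown replicate 1 (-0.45). With unknown depth, values under 1 FPKM carry no stated counting error.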
